A study of Mus musculus with 22 samples.

Results

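CTCF binding in undifferentiated G1ER cells was placed against 2 marks of active chromatin in the same cells. A single list of CTCF ChIP-seq peaks at 0 h, with 33193 peaks of the 388984 peaks in the 22 lists of the series, was compared with the 2 H3K4me3 lists and the 2 H3K27ac lists at 0 h. All CTCF peaks of that list were used. Each was assigned to the histone regions called in both replicates of a mark and to the transcription start sites (TSSs) of 21853 protein-coding genes of the mouse genome (mm10). G1ER (G1E-ER4) is a mouse erythroid progenitor line that lacks endogenous GATA1 and carries GATA1 fused to the ligand-binding domain of the estrogen receptor. All 5 lists come from this line, grown with stem cell factor and erythropoietin and taken at 0 h of β-estradiol, that is, before GATA1-ER is activated. One CTCF list at 24 h of β-estradiol was used as a second library. The CTCF lists have no replicate, so no test between CTCF samples was possible. The study describes the 2 replicates of a mark as independent experiments.

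CTCF is a zinc-finger protein that binds a long, asymmetric DNA sequence. It halts cohesin as cohesin extrudes chromatin loops, most readily where a pair of CTCF sites points toward each other, and it bounds domains and insulates enhancers from promoters. H3K4me3 is a mark of active and poised promoters. H3K27ac is found at active promoters and enhancers, and H3K27ac without H3K4me3 is often used to find enhancers away from promoters.

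The CTCF peaks were short, with a median of 807 bp (quartiles 643 and 962 bp), and covered 27.3 Mb. Their score, an authors' value that probably rises as the peak caller's p-value falls, ran from 50.0 to 3100 with a median of 120. The H3K4me3 lists held 14014 and 14452 peaks, from which 13294 regions were in both replicates (88.2% of 15078). The H3K27ac lists held 17990 and 17892 peaks, with 16106 regions in both (82.6% of 19495). The lists give no read counts, so depth is unknown. The labels were checked against what each target is known to mark. Of H3K4me3 regions, 67.4% held a TSS, against 7.42% of the same regions moved by 50 kb, and for H3K27ac the shares were 51.0% and 7.62%. With 1 TSS taken per gene, 0 of 25 genes of other tissues (such as Alb of liver, Ins2 of pancreas and Myod1 of muscle) had it in either mark. Over all protein-coding genes, 43.2% had it in H3K4me3 and 39.8% in H3K27ac. Of 26 erythroid and progenitor genes, 88.5% had it in H3K4me3. Only 38.5% had it in H3K27ac, which is no more than for all genes. The CTCF list was checked by its DNA sequence.

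A 12-letter part of the known CTCF motif, CCNNNAGNNGGC on either strand (N is any base), was found in the central 400 bp of 19090 peaks (57.5%, 95% Wilson interval 57.0 to 58.0, counting error only). The same peaks moved by 50 kb held it in 6.42%, and the 400 bp around all TSSs held it in 13.3%. A 9-letter part, CNAGGNGGC, was in 17.5% of peaks and 4.12% of moved peaks. The 12-letter form was chosen after the 9-letter form was seen in few peaks. In peaks that held the longer motif, the site closest to the peak midpoint lay a median of 58.0 bp away, and 76.2% lay within 100 bp. The following sites, from high-scoring or well-known places, are printed in the direction of the motif from the reference genome with the 12 letters in capitals and 16 bases on each side:
Upstream of Ints1, in both marks, chr5:139775767-139775810, minus strand: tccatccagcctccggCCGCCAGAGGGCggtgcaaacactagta
Upstream of Hoxa7, in H3K4me3 only, chr6:52221793-52221836, minus strand: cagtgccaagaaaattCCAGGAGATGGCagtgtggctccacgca
Near Mcoln2, in H3K4me3 only, chr3:146178075-146178118, minus strand: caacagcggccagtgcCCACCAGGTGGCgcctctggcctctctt
Near Epm2aip1, in H3K27ac only, chr9:111290003-111290046, minus strand: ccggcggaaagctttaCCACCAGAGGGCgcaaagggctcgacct
Near Lzts1, in H3K27ac only, chr8:69119040-69119083, plus strand: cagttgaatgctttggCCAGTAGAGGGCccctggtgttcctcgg
In an intron of Sec22c, in neither mark, chr9:121697687-121697730, plus strand: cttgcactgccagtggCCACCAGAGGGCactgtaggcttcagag
Upstream of Gata2, in neither mark, chr6:88189616-88189659, plus strand: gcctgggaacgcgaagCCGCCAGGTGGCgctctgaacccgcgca

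Many sites shared more than the motif. In 7147 peaks (21.5%), the site contained the 8 letters AAGAGGGC, and these 8 letters were present in 3.52% of the moved windows. Of these sites, 94.5% were in sequence that the RefSeq genome writes in lower case as repeats, against 14.5% for the other 11943 sites. Their flanks also resembled each other. Over the 32 flanking positions, the commonest base was held by a mean of 61.8% of the AAGAGGGC sites, against 35.8% of the other sites. It is known that mouse SINE B2 repeats have spread CTCF sites through the genome, although no repeat family was assigned here. Other AAGAGGGC sites in the loci below had different left flanks, as at chr6:88151512-88151555 near Gata2 and chr5:139809511-139809554 near Tmem184a. The 4 sites below, from peaks in neither mark at separate erythroid loci, are examples with like flanks and do not stand for the whole set:
Upstream of Gata2, chr6:88160017-88160060, plus strand: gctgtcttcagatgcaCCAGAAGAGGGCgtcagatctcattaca
Tal1 locus, near Foxe3, chr4:114956115-114956158, plus strand: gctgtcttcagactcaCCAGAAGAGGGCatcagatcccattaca
Myb locus, near Hbs1l, chr10:21294052-21294095, plus strand: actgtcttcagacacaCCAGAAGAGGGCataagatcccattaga
Mafk locus, near Micall2, chr5:139739156-139739199, minus strand: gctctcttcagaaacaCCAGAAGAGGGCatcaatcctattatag

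Most CTCF peaks lay outside the active marks. Of the 33193 peaks, 27744 (83.6%, interval 83.2 to 84.0) overlapped neither mark by even 1 bp. This was less than for the same peaks moved by 50 or 100 kb, of which a mean of 93.6% (range 93.2 to 94.2) overlapped neither. Both marks were present at 3534 peaks (10.6%), H3K4me3 alone at 695 (2.09%) and H3K27ac alone at 1220 (3.68%). Away from TSSs, the peaks divided about equally into introns of protein-coding genes (14395 peaks, 43.4%) and sequence between genes (14473 peaks, 43.6%), with 1229 (3.70%) in exons.

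CTCF peaks were nevertheless found in active chromatin more often than their neighborhoods would give. As a background, the same peaks were moved by 50 and 100 kb in both directions and placed again. H3K4me3 regions overlapped 12.7% of CTCF peaks (interval 12.4 to 13.1), against a mean of 4.26% (range 3.98 to 4.53) for the moved peaks, a 2.99-fold enrichment (2.82 to 3.20 over the 4 moves). Against the peaks of replicate 1 alone the share was 12.8%, and against replicate 2 it was 13.2% (SD 0.298, n = 2). H3K27ac regions overlapped 14.3% of CTCF peaks, against 5.58% of moved peaks (2.57-fold, 2.38 to 2.79), with 15.0% and 14.6% for its single replicates (14.8% ± 0.226, SD, n = 2). The enrichment was smaller, 1.72-fold, for H3K27ac without H3K4me3, with 3.68% of CTCF peaks and 2.13% of moved peaks. This class was set by the CTCF peak, which touched an H3K27ac region but no H3K4me3 region. The H3K27ac region could still overlap H3K4me3 elsewhere, so the class is not limited to enhancer-like regions. In each case the difference between real and moved peaks was much larger than that between the mark replicates and than the range over the 4 moves. A TSS lay within 1 kb of the midpoint of 3096 CTCF peaks (9.33%, interval 9.02 to 9.64), against 4.94% of moved peaks (1.89-fold).

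**Figure D1:**
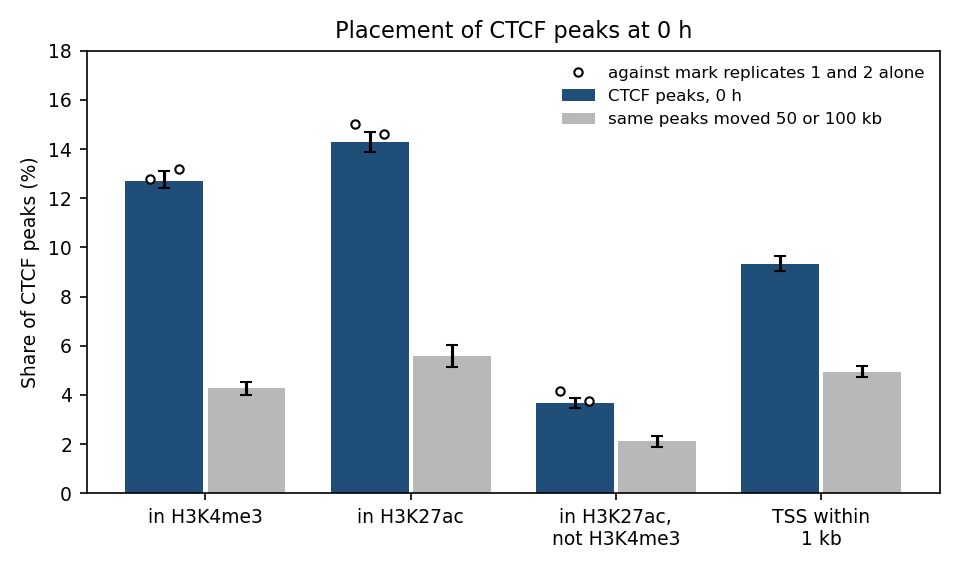
Share of the 0 h CTCF peaks (%, blue, with 95% Wilson intervals) by mark and within 1 kb of a protein-coding TSS. The marks are H3K4me3, H3K27ac, and H3K27ac without H3K4me3 (peaks that touched an H3K27ac region but no H3K4me3 region). Grey bars give the mean share of the same peaks moved by 50 or 100 kb, with the range of 4 moves. Open points give the share against each mark replicate alone. All 4 blue bars stand above the grey ones, from 3.68% against 2.13% for H3K27ac without H3K4me3 to 12.7% against 4.26% for H3K4me3.

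The higher density of CTCF stopped at the edges of the marked regions. Within 500 bp inside an H3K4me3 edge there were 126 CTCF midpoints per Mb, and 124 at 500 bp to 1 kb inside, against 31.6 and 31.3 for moved peaks. In the first 500 bp outside, the density was 36.2 per Mb (moved, 30.6), and from 2 to 5 kb outside it was 32.2 (moved, 30.9). H3K27ac edges gave a similar drop, from 94.0 per Mb in the first 500 bp inside to 37.8 in the first 500 bp outside. Further inside, the H3K27ac density was level, at 98.7 per Mb from 500 bp to 1 kb and 99.9 from 1 to 1.5 kb, whereas the H3K4me3 density at 1 to 1.5 kb was 96.2. The moved peaks themselves were denser here than the genome as a whole, which had 12.2 CTCF peaks per Mb. In the outer 2 kb inside H3K4me3 regions, the density was 2.76 to 3.97 times that of moved peaks.

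**Figure D2:**
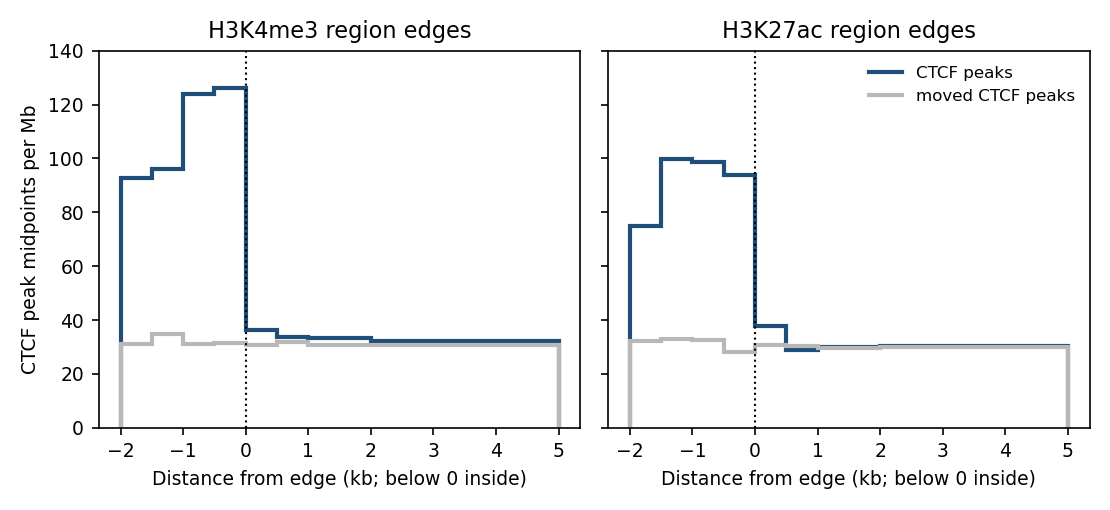
CTCF peak midpoints per Mb (y axis) by distance from the nearest edge of an H3K4me3 region (left) or H3K27ac region (right), in kb, with values below 0 inside the region. Blue lines are the 0 h CTCF peaks and grey lines the mean of the same peaks moved by 50 or 100 kb. For H3K4me3 the blue line falls from 126 per Mb to 36.2 across the edge, close to the grey line.

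By distance, the median CTCF peak was 23.3 kb from an H3K4me3 region, 20 kb from an H3K27ac region and 15.3 kb from a TSS. For peaks moved by 50 kb in either direction the medians were 32.2, 27.6 and 17.6 kb. For moves of 100 kb they were 37.6 and 38.4 kb, 32.3 and 33.2 kb, and 19.4 and 19.2 kb. Peaks in neither mark were a median of 28.5 kb from H3K27ac, and moved peaks that also fell in neither mark were 35.7 to 41.1 kb away. Neighboring CTCF peaks were a median of 25.2 kb apart. Those in H3K27ac alone had another CTCF peak within a median of 9.67 kb, and those in both marks within 10.2 kb, against 14.0 kb for peaks in neither mark.

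Seen from the promoters, CTCF was found mostly at TSSs with H3K4me3. With 1 TSS per gene, a CTCF midpoint lay within 1 kb of 1975 of 8576 TSSs in both marks (23.0%, interval 22.2 to 23.9) and of 197 of 874 in H3K4me3 alone (22.5%, interval 19.9 to 25.4). For TSSs in neither mark it was 405 of 12277 (3.30%, interval 3.0 to 3.63), below the 4.04% given by moved CTCF peaks (range 3.94 to 4.21). The moved peaks gave 6.42% at TSSs in both marks, so that the enrichment was 3.59-fold there and 0.816-fold at unmarked TSSs. Only 126 TSSs lay in H3K27ac alone, and 11 of them (8.73%, interval 4.94 to 15.0) had CTCF, near the 9.13% of moved peaks. CTCF was more often upstream than downstream, at 1145 and 828 of the TSSs in both marks (58.0% upstream). The bin with most CTCF was the 200 bp just before the TSS, with 54.6 midpoints per 1000 TSSs in both marks, compared with 33.2 in the 200 bp after it and 8.51 at 1.8 to 2 kb upstream.

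**Figure D3:**
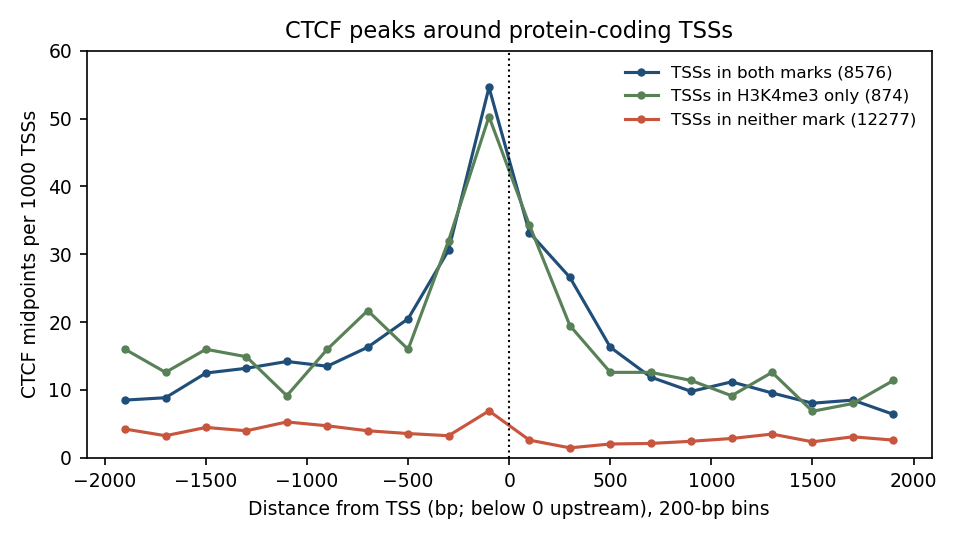
CTCF peak midpoints per 1000 TSSs (y axis) in 200-bp bins by distance from the TSS in bp, with values below 0 upstream, for TSSs in both marks (blue), in H3K4me3 only (green) and in neither mark (red). In the 200 bp before the TSS the values are 54.6, 50.3 and 6.92.

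At promoter peaks, the direction of the motif could be compared with that of the gene. Where a peak within 1 kb of a TSS held the 12-letter motif on 1 strand only, motif and gene pointed the same way in 751 of 1369 (54.9%, interval 52.2 to 57.5). Upstream peaks gave 58.1% (interval 54.8 to 61.4) and downstream peaks 49.6% (interval 45.3 to 53.9). Across the genome, 9186 and 9278 peaks had the motif on the plus and minus strand. Consecutive peaks among these 18464, passing over the peaks between them that had no motif or had it on both strands, pointed toward each other in 4560 of 18444 pairs (24.7%), away in 4561 (24.7%) and the same way in 9323 (50.5%), the shares that independent directions give. Pairs that pointed toward each other were a median of 54.4 kb apart, and those that pointed away 39.5 kb.

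Turned around, 4025 of 13294 H3K4me3 regions (30.3%, interval 29.5 to 31.1) and 4477 of 16106 H3K27ac regions (27.8%, interval 27.1 to 28.5) held a CTCF peak, against 10.2% and 10.9% with moved peaks. H3K4me3 regions with a TSS held CTCF in 32.0%, and those without a TSS in 26.8%. The latter were shorter (median 1232 against 2768 bp), and moved peaks were found in 5.83% and 12.4%, so that the enrichment was 4.59-fold without and 2.59-fold with a TSS. The shortest quartile of the H3K4me3 regions (247 to 1522 bp) held CTCF in 25%, against 4.27% with moved peaks (5.86-fold). The longest quartile held it in 37.6% against 16.6% (2.26-fold). Among H3K27ac regions without a TSS, 31.8% of those with H3K4me3 held CTCF (3.45-fold), but only 16.3% of the 4867 without H3K4me3 (interval 15.3 to 17.4, 1.93-fold). The more highly scored H3K27ac regions held CTCF more often, from 19.2% in the lowest to 35.1% in the highest quartile by score, although these regions were also longer (median 1518 and 2985 bp). Moved peaks rose likewise from 7.52% to 12.5%, and the enrichment was 2.55-, 2.29-, 2.49- and 2.81-fold from the lowest to the highest quartile. For H3K4me3 regions the share was 22.0% in the lowest and 32.1% in the highest quartile by score, with enrichments of 4.11- and 2.64-fold.

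The CTCF peaks with the highest scores were the ones that most often overlapped the marks. In the 4 lower quintiles of the list by score, 9.69%, 10.5%, 11% and 11.9% of peaks were in H3K4me3, 2.50- to 2.67-fold above moved peaks. In the top quintile (score above 211.6) the share was 20.6% (interval 19.6 to 21.5, 4.31-fold). It was 32.1% in the top 5% of peaks and 51.4% (interval 46.0 to 56.7) in the top 1% (331 peaks). H3K27ac gave 11.7% in the lowest quintile, 21.2% in the top quintile and 48.6% in the top 1%. The overlap with H3K27ac alone changed little, at 3.46% and 4.29% in the lowest and top quintile and 3.02% in the top 1%. The share of peaks within 1 kb of a TSS was 7.28%, 13.3% and 22.4%.

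The highest scores of all were not at typical CTCF sites. The 4 CTCF peaks at 3100 lay near Rpusd4 on chromosome 9, in an exon of the predicted gene Gm10800 on chromosome 2, near Ly6c2 on chromosome 15 and in an intron of the predicted gene Gm21738 on chromosome 14. Each was also a peak in all 4 histone lists, with scores from 2165.6 to 3100, and in the 24 h CTCF list. Only the one near Rpusd4 held the 12-letter motif. The next in rank among peaks of both marks, named after their values were seen, lay near Rab10 (2738.6) and in an intron of Chl1 (1897.83). These also scored alike in every list, with 1762.0 to 1935.1 at Chl1. Their GC content in the central 400 bp ranged from 31.0% to 39.2% over these 6 peaks, against a median of 52.8% for all peaks in both marks. The part of such peaks in the overlap was measured by leaving out the top 1% of scores. The remaining peaks were in H3K4me3 in 12.4% and in H3K27ac in 14.0%. The part of such peaks in the rise of overlap with score was not tested.

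In the other classes, the 3 highest-scoring peaks of each had lower CTCF scores. In H3K4me3 alone they lay near Drd5 (637.97), Gm16253 (637.05) and Mcoln2 (577.86), where the H3K4me3 peaks scored 52.0 to 140.6, against list medians of 862 and 804. In H3K27ac alone they lay near Epm2aip1 (825.2), Lzts1 (667.03) and Sync (571.97), where H3K27ac scored 58.9 to 179.9, against list medians of 240 and 260. In neither mark they were 368555 bp upstream of Arid1b (1289.57) and in introns of Sec22c (927.27) and Armc9 (870.11). All of these were also CTCF peaks at 24 h. The peaks near Sync and Arid1b held no 12-letter motif. At Arid1b, H3K4me3 had a peak (375.0) in replicate 2 only, and the CTCF score at 24 h was 3100, as at the highest peaks in both marks.

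The DNA sequence of CTCF peaks differed between marked and unmarked places. The 12-letter motif was in 59.8% (interval 59.2 to 60.4) of peaks in neither mark, in 51.3% (interval 48.5 to 54.1) of those in H3K27ac alone, in 46.6% in H3K4me3 alone and in 43.9% (interval 42.3 to 45.6) of those in both marks. The order was the opposite of the background, since the motif was in 14.9% of both-mark TSSs and 8.92% of unmarked TSSs that had no CTCF within 2 kb. Windows 2 kb beside the peaks held it in 6.86% for peaks in neither mark and in 7.41% for those in both. The 9-letter part gave the opposite difference, at 17.1% in neither mark and 20.9% in both marks. This part does not match an AAGAGGGC site, which has AGA where the part needs AGG. Such sites were in 38.7% of the peaks with the 12-letter motif in neither mark and in 24.9% of those in both marks. The 9-letter part was also common at promoters without CTCF. It was in 15.9% of both-mark and 10.8% of unmarked TSSs that had no CTCF within 2 kb. Windows 2 kb beside the peaks held it in 4.90% for peaks in both marks and 4.16% for those in neither. TSS proximity went with the 9-letter share, which was 24.7% in both-mark peaks within 1 kb of a TSS and 15.5% in the others of both marks. For the 12-letter motif these values were 42.7% and 45.6%. Unmarked peaks within 1 kb of a TSS held the 12-letter motif in 62.1% (interval 58.6 to 65.5) of 747. Median GC content was 52.8% in both marks and 44.8% in neither.

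Peaks with the motif less often lay in H3K4me3 or in H3K27ac. H3K4me3 overlapped 16.7% of the 14103 peaks without the 12-letter motif (4.11-fold over moved peaks), 11.9% of those with a site other than AAGAGGGC (2.94-fold) and 6.39% of those with an AAGAGGGC site (1.27-fold). For H3K27ac the values were 18.3% (3.45-fold), 12.7% (2.37-fold) and 9.29% (1.42-fold). H3K27ac without H3K4me3 gave another order, at 4.21% (2.07-fold), 2.92% (1.43-fold) and 3.88% (1.56-fold). The AAGAGGGC peaks scored lower (median 86.0, against 147 for other motif peaks and 121 without the motif), and their share fell from 35.3% of the lowest quintile by score to 9.34% of the top quintile. For H3K4me3 the order by motif was the same within each quintile. In the lowest quintile, H3K4me3 held 14.8%, 8.55% and 4.43% of peaks without the motif, with other sites and with AAGAGGGC sites, and in the top quintile 23.9%, 19.3% and 12.4%. For H3K27ac, peaks without the motif had the highest share in each quintile, but other sites and AAGAGGGC sites were level in quintile 3 (10.2% and 10.1%) and in the opposite order in quintile 4 (11.2% and 11.9%). In the top 1% of peaks, H3K4me3 held 65.3% (interval 57.3 to 72.5) of the 147 peaks without the motif and 42.9% (interval 35.6 to 50.6) of the 163 with other sites.

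**Figure D4:**
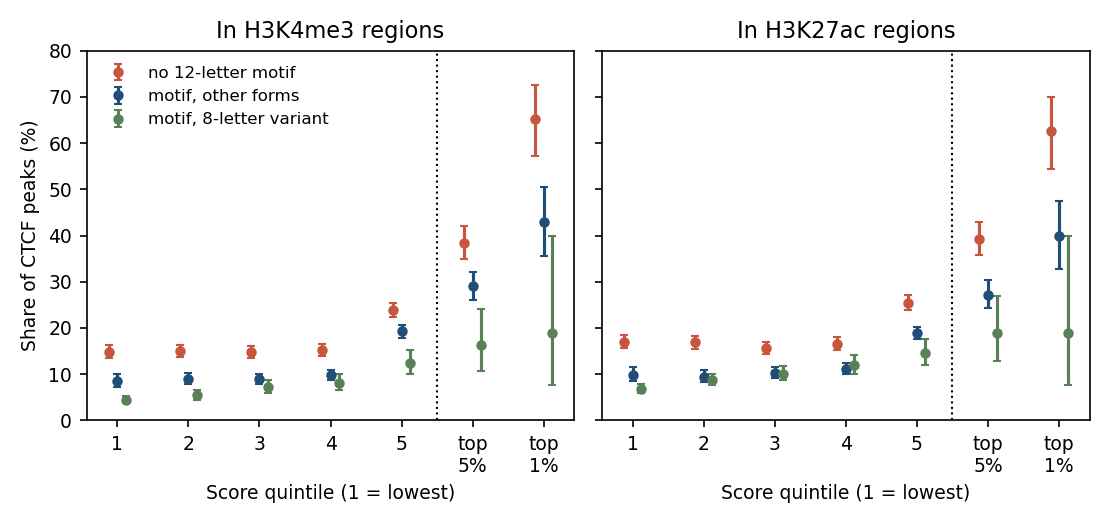
Share of CTCF peaks in H3K4me3 (left) and H3K27ac (right) regions (%, y axis, 95% Wilson intervals) by quintile of the CTCF score and, right of the dotted line, for the top 5% and top 1% of peaks, which are parts of the top quintile. Red points are peaks without the 12-letter motif, blue points peaks with a site other than AAGAGGGC and green points peaks with an AAGAGGGC site. For H3K4me3 the red points run from 14.8% in the lowest quintile to 65.3% in the top 1%, above the blue ones throughout.

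Gene lists were drawn from general knowledge, but with earlier results of these data known. To see which promoters carried CTCF, they were counted by whether a CTCF midpoint lay within 1 kb of any TSS of the gene. The marks, in contrast, were scored at 1 TSS per gene. Over all protein-coding genes the share was 14.6% (3193 of 21853). Over genes whose scored TSS lay in both marks it was 26.4% (2262 of 8576). Genes of CTCF itself, cohesin and related chromatin factors had the highest share, 13 of 27. The highest scores were at the cohesin subunit gene Stag1 (153 bp upstream of the TSS, score 471.7), the chromatin remodeler gene Bptf (271 bp upstream, 440.8), Esco1, whose enzyme acetylates cohesin (56 bp downstream, 412.7), and the cohesin regulator gene Pds5b (126 bp upstream, 376.3). Named after their values were seen, Ctcf itself had a CTCF peak 234 bp downstream of its TSS (290.5), and the cohesin subunit genes Stag2, Smc3 and Smc1a had peaks 208, 497 and 541 bp upstream (192.3, 265.9 and 54.4). Rad21, also a cohesin subunit, had its nearest CTCF peak at 14920 bp and Parp1 at 25107 bp. All 27 TSSs lay in H3K4me3. Of the 23 in both marks, 11 had CTCF (47.8%, against 26.4% for all such genes).

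Ribosomal protein genes, which are highly transcribed in every growing cell, had CTCF at 28 of 77 (36.4%), and 21 of the 62 in both marks did (33.9%). The highest scores were at Rps3a1 (15 bp upstream, 488.0), Rpl36 (205 bp upstream, 393.4) and Rps14 (88 bp upstream, 328.4). Cell cycle genes had 7 of 39 (17.9%), all of them among the 31 in both marks (22.6%), including Ccna2 for cyclin A2 (26 bp upstream, 223.6), Cdk6 (9 bp downstream, 184.5) and the replication helicase subunit Mcm5 (914 bp upstream, 261.8). The nearest CTCF peak was 24229 bp from Plk1, a mitotic kinase, and 52461 bp from Mcm4.

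Among the 26 erythroid and progenitor genes, 7 had CTCF within 1 kb (26.9%) and 18 within 5 kb (69.2%, against 35.2% of all genes). Of these genes, 23 had their 1 scored TSS in H3K4me3. Counted with 1 TSS per gene, CTCF lay within 5 kb of 47.9% of TSSs in both marks and 51.6% in H3K4me3 alone. Of the 10 erythroid genes in both marks, 2 had CTCF within 1 kb, against 26.4% for all such genes. CTCF lay 458 bp upstream of Ank1, which encodes the red cell membrane protein ankyrin (score 715.0), 684 bp upstream of the repressor gene Gfi1b (219.8) and 18 bp downstream of a TSS of the corepressor gene Cbfa2t3 (205.9). The nearest peak was 36672 bp from Alas2, the erythroid enzyme that starts heme synthesis, and 8597 bp from Tal1. At these genes 16 of the 26 TSSs lay outside H3K27ac regions and 3 outside H3K4me3 regions. The shares inside were 38.5% for H3K27ac and 88.5% for H3K4me3, against 39.8% and 43.2% of all protein-coding genes. Gata2 and Tal1 were among those outside both marks, although these genes are known to be active in G1ER cells. No histone peak in the 4 lists was longer than 9062 bp. Whether wide marked regions are missing from the lists was not tested, and CTCF peaks counted as unmarked at such genes may lie in chromatin that carries a mark.

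Of 22 heme and iron genes, 7 had CTCF, including the heme synthesis gene Ppox (687 bp upstream, 327.0) and Slc25a38, which encodes a mitochondrial glycine carrier (179 bp upstream, 277.5), while Fech was 10742 bp away. Of the 14 heme and iron genes in both marks, 5 had CTCF (35.7%, against 26.4% for all such genes). Of 41 matched promoters that the study captured, which it chose from these cells for their change in expression, 6 had CTCF (14.6%). Of the 28 captured promoters in both marks, 3 had CTCF (10.7%, also against 26.4%). Hox genes had 4 of 39 and imprinted genes 3 of 29 (10.3% each). Of those in both marks, the counts were 1 of 5 and 2 of 8. Tissue genes of other lineages had 0 of 25, and 6 of them within 5 kb, Apoa1 of liver (1468 bp) and Gcg of pancreas (1496 bp) being nearest. The scored TSSs of these 25 tissue genes were all outside both marks. Over all TSSs in neither mark, with 1 TSS per gene, CTCF lay within 1 kb of 3.30% and within 5 kb of 17.0%. The lists are small, and their shares are given as counts without a test.

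**Figure D5:**
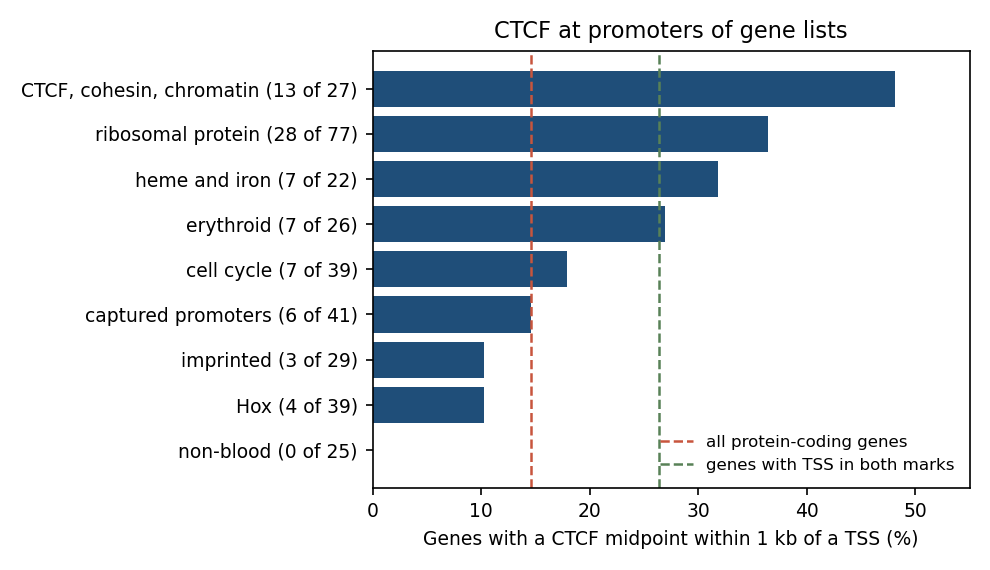
Share of the genes of each list with a CTCF midpoint within 1 kb of any of their TSSs (%, x axis), with counts beside the names. Dashed lines give the share over all protein-coding genes (14.6%, red) and over genes whose 1 scored TSS was in both marks (26.4%, green). Genes for CTCF, cohesin and related factors (13 of 27) and ribosomal proteins (28 of 77) lie above both lines. So do heme and iron genes (7 of 22) and, by little, erythroid and progenitor genes (7 of 26).

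At well-studied loci the split between marked and unmarked CTCF peaks could be followed peak by peak. The β-globin locus, from the genes to the olfactory receptor genes around them, held 4 CTCF peaks. Those in neither mark lay 7032 bp from the Hbb-bt TSS (251.64) and near Olfr67 (168.49), both on the side of the adult genes and both with the 12-letter motif. The others lay in H3K27ac alone near Olfr66 (178.97) and Olfr65 (158.84), and neither held the motif. The Olfr66 peak met an H3K27ac peak of replicate 1 only (219.6), with its midpoint 14 bp outside the region. The Olfr65 peak met H3K27ac peaks of both replicates (100.8 and 158.8). All 4 were also peaks at 24 h. The site beside Hbb-bt, on the minus strand of chr7:103807058-103807101, read:
Hbb-bt: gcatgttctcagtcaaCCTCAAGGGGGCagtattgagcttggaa

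The α-globin locus held 7 peaks, of which 5 were in neither mark. One peak in both marks lay 473 bp upstream of Hbq1b (266.94), where H3K4me3 scored 323.5 and 334.0 and H3K27ac 75.8 and 119.0 in the 2 replicates. One in H3K27ac alone lay in an intron of Nprl3 (176.76), the gene whose introns hold the α-globin enhancers. The outermost peaks, in an intron of Rhbdf1 (227.58) and 21198 bp beyond Hbq1a (319.85), both held the motif and were in neither mark.

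Gata2, a progenitor factor gene that GATA1 represses on differentiation, had 10 peaks in its locus. The highest (372.87) lay between Rpn1 and Gata2 in both marks and had no 12-letter motif. The next (287.43) lay 4401 bp upstream of Gata2 in neither mark and had one. Around Kit, the receptor gene for stem cell factor, 3 of 5 peaks were in neither mark, and the one 897 bp downstream of the TSS (123.27) was in H3K4me3, with scores of 76.0 and 76.2 in the replicates. The Myc locus held 3 peaks, among them 1 in both marks 2088 bp upstream (210.26), where H3K4me3 scored 741.9 and 697.9, and 1 in both marks 39 bp downstream of the TSS (51.77) that was no peak at 24 h. In the Myb locus, 9 peaks included one in both marks 2636 bp downstream of the TSS (168.45) and one in H3K4me3 alone 28134 bp upstream (267.77).

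The Mafk locus, which has many neighboring genes, held 18 peaks, and 12 were in neither mark. The highest (331.05) lay 100 bp upstream of Ints1 in both marks, with H3K4me3 at 1426.3 and 1638.2. In the Tal1 locus, 7 of 10 peaks were in neither mark, including the highest, 3045 bp upstream of Pdzk1ip1 (309.74). The imprinted H19-Igf2 locus held 2 peaks (121.88 and 110.31), both in neither mark. The Hoxa cluster had 4 peaks and 1 H3K4me3 region, which held the peak 45 bp upstream of Hoxa7 (318.52). The Hoxb cluster had 8 peaks, of which 7 were in neither mark. Of the 11 loci, all but H19-Igf2 held both marked and unmarked CTCF peaks.

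CTCF peaks in all classes were found again at 24 h of β-estradiol. Of the 0 h peaks, 92.1% overlapped 1 of the 41473 peaks of the 24 h list, at 94.9% (interval 94.1 to 95.6) in both marks, 94.8% in H3K4me3 alone, 91.3% (interval 89.6 to 92.8) in H3K27ac alone and 91.8% (interval 91.4 to 92.1) in neither. The share rose with score from 70.9% in the lowest quintile to 100% in the top, and the classes differed in score, with medians of 147, 154, 128 and 116. The 24 h peaks were placed against the same 0 h regions as a second CTCF library, though at another time. They overlapped H3K4me3 in 12.4% (2.75-fold) and H3K27ac in 14.1% (2.41-fold), and 84.0% were in neither. The 11059 peaks of the 24 h list without a 0 h peak gave 10.2%, 12.3% and 86.6%. Their scores were lower, with a median of 71.2 against 150 for the whole 24 h list.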

How the data were processed

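The data were 5 ChIP-seq peak lists at 0 h (CTCF, 1; H3K4me3 and H3K27ac, 2 each) and the 24 h CTCF list. According to the methods, histone reads were mapped to mm10 with Bowtie2, multiply mapped reads were removed, and MACS was run on each library. The CTCF steps are not given in the sources used here. The labels also name a human build, but positions fitted the mouse genome. The score column was deposited by the authors, probably as a log-scaled p-value, and served here only to rank peaks within a list. A mitochondrial peak was dropped from each H3K27ac list. Replicate peaks were merged where they touched, and regions with a peak of both were kept. Overlap meant at least 1 bp. TSSs came from GENCODE M21 (54361 protein-coding starts), and sequence from RefSeq GRCm38.p6. Named peaks were the 3 highest-scoring of each class (ties by shorter length, then position), peaks of the chosen loci and, per gene list, members with the highest-scoring CTCF peaks and members without one. Members, lists and loci were chosen with earlier results of these data known. Python 3.11.15 with pandas 2.3.3 and pysam 0.24.0 was used, and the steps were tested on simulated intervals. No test between samples was made. Wilson intervals cover counting error only.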

Additional observations from a re-analysis of the deposited data

How the results depend on the processing

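No result turned around under a setting planned at the outset, but many values moved by more than the small spread between the mark replicates. With the CTCF midpoint inside the region, 11.5% of peaks lay in H3K4me3, 12.7% in H3K27ac and 85.2% in neither, with enrichments of 3.57, 2.96 and 1.86 for H3K4me3, H3K27ac and H3K27ac without H3K4me3, and a difference of the 9-letter motif (neither minus both marks) of -4.43 percentage points, against -3.79 in the report's setting. With at least 50% of the peak inside, the same values were 11.5%, 12.7%, 85.2%, 3.56, 2.95, 1.86 and -4.47. With CTCF peaks at or above the median score they were 15.3%, 16.5%, 80.8%, 3.31, 2.78, 1.77 and -1.97, with 10.7% near a TSS (2.00-fold), and 18.8% of H3K4me3 and 16.7% of H3K27ac regions held a CTCF peak. With regions of either replicate they were 13.7%, 16.1%, 81.8%, 3.06, 2.58 and 1.80, with 28.7% and 26.0% of regions holding CTCF. Leaving out each mark replicate in turn gave 12.7% to 13.2% in H3K4me3, 14.3% to 15.0% in H3K27ac and 83.1% to 83.5% in neither, folds of 2.99 to 3.11, 2.57 to 2.67 and 1.67 to 1.89, 29.0% to 30.3% of H3K4me3 and 25.7% to 27.8% of H3K27ac regions with CTCF, and motif differences of -3.96 to -3.76.

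With 1 start per gene, 7.35% of peaks were near a TSS (2.30-fold), within 500 bp 6.38% (2.42-fold) and within 2 kb 14.0% (1.51-fold). Moves of 500 kb and 1 Mb gave larger enrichments, 4.47, 3.81, 2.39 and 2.58 for H3K4me3, H3K27ac, TSSs and H3K27ac without H3K4me3. Merging regions within 1 kb gave 30.4% of H3K4me3 regions with CTCF. The 9-letter difference was -1.38 points in the central 200 bp, -8.79 over whole peaks and -10.7 for the 7-letter core, AGGNGGC. The 12-letter motif, added after the data were seen, reversed it to 15.9 points. It counts AAGAGGGC sites, which the 9-letter part does not match. These sites were in 6413 of the 27744 peaks in neither mark and in 387 of the 3534 peaks in both marks. The 12-letter difference without these sites was not tested.

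Also added after seeing the data, peaks with the 12-letter motif alone gave 9.83% in H3K4me3, 11.4% in H3K27ac, 86.9% in neither and 7.70% near a TSS, folds of 2.23, 1.97, 1.51 (TSS) and 1.49 (H3K27ac without H3K4me3), and 13.8% and 13.1% of the regions with CTCF. Without the top 1% of scores, the values were 12.4%, 14.0% and 84.0%, folds of 2.90 and 2.50, and 29.0% and 26.8% of regions. No paired analysis was possible because the values come from no test and CTCF has 1 list at 0 h. The lists give no depth, so a place without a peak may carry CTCF or a mark below the caller's threshold. Moved peaks keep the number, length and rough neighborhood of the CTCF peaks but not their distance to genes or their base composition.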
